A study of Mus musculus with 6 samples.

Results

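The transcripts described here encode RNF213, the PARP family members PARP9, PARP10, PARP12 and PARP14, the ubiquitin ligases DTX3L and HERC6, and the nucleic acid sensors MDA5 (encoded by Ifih1), LGP2 (encoded by Dhx58) and ZBP1. They are 10 of the 22377 genes in the count table, and all 10 were among the 13884 genes that passed the filter on low counts. The genes were picked by name, with the difference between the groups already known, so the differences described for them carry no test. The RNA came from subcutaneous tumors, and 3 libraries labelled wt were set against 3 labelled ko, whose treatment label reads knockdown. The study describes the groups as Npm1+/+ mice and mice heterozygous for Npm1 (Npm1+/-), all bearing Lewis lung carcinoma (LLC) tumors. Male and female mice were 6 to 8 weeks old at implantation, and tumors were taken 2 weeks later. No library's sex is given, and no litter or batch. LLC is a transplantable mouse lung carcinoma line, and in this model its cells carry their own Npm1 alleles whatever the host's genotype. The study describes CD45+ CD11b+ F4/80+ macrophages sorted from the tumors and a cDNA kit for low RNA input, whereas the labels give whole tumor tissue and TRIzol extraction, and the sources used here do not settle which applies.

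RNF213 is a very large protein that joins a AAA+ motor to a ubiquitin ligase and coats intracellular bacteria and other microbes. The PARP enzymes in this group attach single ADP-ribose units to proteins and nucleic acids, except PARP9, which binds ADP-ribose through macrodomains and works as a partner of the ubiquitin ligase DTX3L. MDA5 and LGP2 are helicases that bind double-stranded RNA in the cytoplasm, and ZBP1 binds Z-form nucleic acids. All of these genes are known to be induced by interferons in macrophages.

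Library totals ran from 36550775 to 38147320 counts, and the 10 genes had between 729 and 16639 counts in a library. The libraries labelled ko did not have less Npm1, the targeted gene. Npm1 stood at 142, 380.2 and 381 CPM (counts scaled to library size with TMM factors) in wt and at 441, 499 and 343 CPM in the libraries labelled ko, a log2 fold change of 0.51 ± 0.36 (SE) with an adjusted p of 0.436 in edgeR's quasi-likelihood test. Every direction given for ko is therefore a direction between labels. The wt replicate 1 library stood apart. On a first principal component that held 68.0% of the variance it lay at -108, against -4.54 to 52.0 for the other 5 libraries, and the differences of the 10 genes are given with and without it. It also decided much of the Npm1 difference, which was 0.16 on the log2 scale without it. Ptprc, Itgam and Adgre1, which encode the sorted surface proteins, were present in all 6 libraries. They are among the 8 genes called macrophage markers here, although Ptprc and Itgam are not confined to macrophages. Taken singly, Ptprc and Adgre1 overlapped between the groups, and Itgam was lower in every library labelled ko. The summed level of all 8 macrophage markers was lower in the libraries labelled ko (9242 to 15416 CPM) than in wt (15453 to 20842 CPM), and none was at 0 in any library. The 6 neutrophil markers summed to 1839 to 2039 CPM in wt and 822 to 1572 CPM in ko. Summed markers of plasmacytoid dendritic cells (0.733 to 2.36 CPM in wt, 0.629 to 3.60 in ko), conventional dendritic cells (213 to 364 and 236 to 337), T cells (24.4 to 101 and 78.6 to 219), NK cells (17.9 to 33.9 and 28.5 to 93.7) and B cells (6.26 to 36.1 and 11.8 to 58.0) overlapped between the groups. So did those of fibroblasts (22.4 to 470.0 CPM in wt, 341 to 681 in ko), epithelial or carcinoma cells (35.2 to 137 and 129 to 191) and endothelium (32.7 to 39.8 and 29.7 to 33.5), and among all marker lists Klk1, Krt19 and Tek were at 0 in some libraries.

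The 10 genes lie on 5 mouse chromosomes (coordinates from the GENCODE annotation of GRCm38). Rnf213 (chr11:119393100-119487418, plus strand) and Dhx58 (chr11:100694884-100704271, minus strand) share chromosome 11 with Npm1 (chr11:33152287-33163206), which is 86.2 Mb from Rnf213 and 67.5 Mb from Dhx58. Parp14 (chr16:35832874-35871544, minus strand), Dtx3l (chr16:35926511-35939151, minus strand) and Parp9 (chr16:35938470-35972605, plus strand) form a cluster on chromosome 16. Parp9 and Dtx3l lie head to head and overlap by 682 bases, 458 of them exonic in both genes. Whether the counting used strand is not given in the sources used here, so reads from that overlap cannot be assigned to either gene with certainty. Parp12 (chr6:39086410-39118349, minus strand) and Herc6 (chr6:57581000-57664632, plus strand) lie on chromosome 6. Ifih1 (chr2:62595798-62646255, minus strand) and Zbp1 (chr2:173206612-173218923, minus strand) lie on chromosome 2. Parp10 (chr15:76231174-76243441, minus strand) shares 205 of its 4275 exonic bases with Plec on the same strand. Plec had several times more counts (14474 to 20359 in a library), which are not scaled to gene length. Rnf213 shares 1476 of 16888 exonic bases with the antisense transcript A930037H05Rik, which had 0 to 16 counts in a library. Herc6 shares 1269 of 9292 exonic bases with Gm45193 and Parp14 shares 110 of 9306 with Gm49730, both on the same strand. Neither was analysed here, so the assignment of those reads is uncertain. Dhx58 shares 141 of 3272 exonic bases with the antisense transcript Dhx58os. That transcript was not analysed here either, so those reads are uncertain too if strand was not used.

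Promoter sequence from RefSeq (GRCm38.p6) was at hand for 5 of the 10 genes, Rnf213, Parp12, Dtx3l, Herc6 and Ifih1, and not for Parp9, Parp10, Parp14, Dhx58 and Zbp1. The promoters differed widely in CpG content. Parp12 had 41 CpG dinucleotides in the 250 bases before its RefSeq start, more than 98.9% of the 32851 mouse promoters in the same table, and a GC content of 73.6%. Rnf213 had 20, Dtx3l 13 and Ifih1 11, against a median of 6 over all promoters. The Rnf213 window (chr11:119389849-119390148) belongs to a RefSeq start upstream of the GENCODE start given above. Herc6 had 1, with a GC content of 46.0%. The ends of this range, Parp12 and Herc6, are shown, and a relation of CpG content to expression was not tested. The sequences run 5′ to 3′ on the gene's own strand, with CpG in capitals, for Parp12 (chr6:39118350-39118599) and Herc6 (chr6:57580742-57580991).
Parp12: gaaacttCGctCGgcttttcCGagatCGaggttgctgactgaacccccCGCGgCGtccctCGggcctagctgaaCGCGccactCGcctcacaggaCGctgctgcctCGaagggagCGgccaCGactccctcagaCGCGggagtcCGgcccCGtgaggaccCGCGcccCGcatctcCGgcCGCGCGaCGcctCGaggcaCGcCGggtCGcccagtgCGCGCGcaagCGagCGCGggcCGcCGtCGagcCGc
Herc6: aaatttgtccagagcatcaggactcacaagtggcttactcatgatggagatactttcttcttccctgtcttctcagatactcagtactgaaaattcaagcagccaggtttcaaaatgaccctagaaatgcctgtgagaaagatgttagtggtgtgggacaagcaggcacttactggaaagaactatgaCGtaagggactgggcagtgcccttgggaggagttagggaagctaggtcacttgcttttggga

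A core of the interferon-stimulated response element, GAAA followed by any 2 bases and GAAA, was searched on both strands from 250 bases before to 50 after the start. It was found in 1 of the 5 promoters, that of Ifih1, and in 3.44% of all promoters. The match lies at bases 33 to 42 from the start and is in capitals in the 30 bases shown (chr2:62646206-62646235, minus strand).
Ifih1: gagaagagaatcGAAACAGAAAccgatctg
The core of a STAT site, TTCNNNGAA, which reads the same on both strands, was in none of the 5 windows and in 8.30% of all promoters. A match describes letters only, and the absence of one describes only this window.

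Across the 10 genes, 5 had lower levels in all 3 libraries labelled ko than in any wt library. These were Rnf213, Parp10, Parp12, Dhx58 and Zbp1, and over all genes tested 12.6% had this pattern, or 25.9% with separation in either direction. No gene was higher in every library labelled ko (13.3% of all genes). The fitted log2 fold change was below 0 for 8 of the 10 genes (47.9% of all genes), and 8 of the 10 lay below the median of all genes. On scaling to the macrophage markers, which raised the median of all genes by 0.51, it was below 0 for 3. Such scaling moves all genes nearly alike, so it was built in that 8 again lay below the median of all genes. Without wt replicate 1 the fitted log2 fold change was below 0 for all 10, and 6 of the 10 did not overlap, with Parp9 added (14.9% of all genes). The median over the 10 genes was -0.31 on the log2 scale (-0.30 without wt replicate 1), beside 0.02 (0.03) over all genes tested. At an adjusted p under 0.05, edgeR called 0 of the 10 and 0 of all 13884 genes (0.0%). At an unadjusted p under 0.05 edgeR singled out 5 of the 10 (15.2% of all genes), and DESeq2, with an adjusted p, called 1, Rnf213 (0.263% of 13699 genes). Since this contrast chose the genes, nothing is read from these counts. In bulk RNA, fewer cells of a type and less RNA per cell cannot be told apart.

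**Figure D1:**
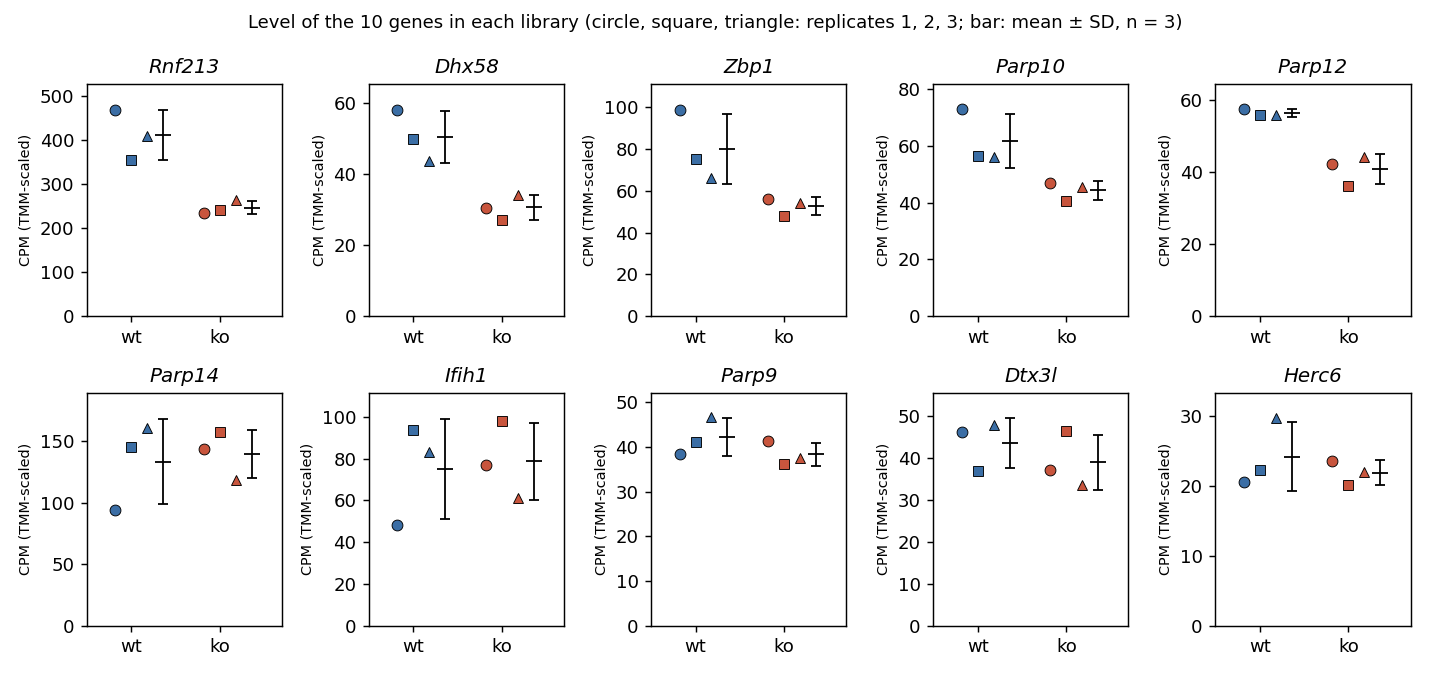
TMM-scaled CPM (vertical axes, each starting at 0) of the 10 genes in the 3 wt libraries and the 3 libraries labelled ko, with the points marking libraries (circle, square and triangle for replicates 1, 2 and 3) and the bars the mean ± SD of each group. Rnf213, Parp10, Parp12, Dhx58 and Zbp1 have no overlap between groups, while Ifih1 and Parp14 have their lowest point in wt replicate 1.

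Rnf213 had the widest gap between the groups. Its level was 468, 355 and 409 CPM in wt and 234, 242 and 263 CPM in the libraries labelled ko. The lowest wt library was 1.35 times the highest ko library, and the 3 ko libraries lay close together. Means were 411 ± 56.3 CPM (SD, n = 3) in wt and 246 ± 15.0 CPM (SD, n = 3) in ko, which gave a ratio of ko to wt of 0.599 and a log2 fold change of -0.74 ± 0.14 (SE). Without wt replicate 1, the highest of the 6 libraries, the log2 fold change was -0.64 ± 0.14.

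The PARP genes differed among themselves. Parp10 and Parp12, which like Parp14 encode mono-ADP-ribosyltransferases, were lower in every library labelled ko. Parp9 and Parp14, which sit in the chromosome 16 cluster and carry macrodomains, overlapped between groups. Parp12 stood at 57.7, 55.8 and 55.8 CPM in wt and at 42.4, 36.1 and 44.2 CPM in ko. Its wt libraries were the most alike of all 10 genes, with a coefficient of variation of 1.91%, which is within the range that counting error alone gives at 1980 to 2087 counts, and wt replicate 1 did not stand out. The log2 fold change of Parp12 was -0.46 ± 0.12 (SE) with all libraries and -0.45 ± 0.13 without wt replicate 1. Parp10 had 72.9, 56.6 and 56.0 CPM in wt and 47.0, 40.6 and 45.5 CPM in ko. Here wt replicate 1 lay well above the other wt libraries, and the log2 fold change went from -0.48 ± 0.14 to -0.35 ± 0.12 without it.

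Parp14, a large macrodomain enzyme linked to STAT6 signalling, had 94.3, 145 and 161 CPM in wt and 143, 157 and 118 CPM in ko. Apart from wt replicate 1, which was lowest, the libraries were mixed. Its log2 fold change of 0.06 ± 0.21 (SE) became -0.14 ± 0.15 without that library, and -0.04 without ko replicate 2, so the sign rested on single libraries. Parp9 had 38.5, 41.2 and 46.8 CPM in wt and 41.3, 36.2 and 37.6 CPM in ko. Ko replicate 1 was level with wt replicate 2, and wt replicate 1 lay within the range of ko. The log2 fold change was -0.14 ± 0.13 with that library, -0.20 ± 0.13 without it and -0.07 without wt replicate 3.

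The ubiquitin ligases other than RNF213 overlapped between labels. Dtx3l, the ligase partner of PARP9, had 46.1, 36.7 and 47.7 CPM in wt and 36.96, 46.2 and 33.5 CPM in ko. In each group 1 library stood away from the others, low in wt replicate 2 and high in ko replicate 2. Its log2 fold change was -0.16 ± 0.17 (SE), or -0.12 ± 0.18 without wt replicate 1. It was -0.27 without wt replicate 2 and -0.31 without ko replicate 2, when the groups did not overlap, and -0.07 without ko replicate 3. Herc6, the main ligase for the ubiquitin-like protein ISG15 in mice, had 20.5, 22.3 and 29.7 CPM in wt and 23.6, 20.1 and 22.0 CPM in ko. The wt replicate 3 library was highest, and the other 5 lay close together. The log2 fold change of Herc6 was -0.14 ± 0.18 (SE), -0.25 ± 0.17 without wt replicate 1 and 0.02 without wt replicate 3, so its sign rested on that library. With all libraries the standard error was larger than the difference for both genes.

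The RNA sensors split. Dhx58 encodes LGP2, which has no signalling domain of its own and tunes the other RNA helicases. It stood at 57.9, 49.7 and 43.5 CPM in wt and at 30.5, 27.2 and 34.1 CPM in ko. The groups were separate, with the lowest wt library 1.27 times the highest ko library. Its mean went from 50.4 ± 7.197 CPM (SD, n = 3) in wt to 30.6 ± 3.49 CPM (SD, n = 3) in ko, a log2 fold change of -0.72 ± 0.15 (SE), and -0.61 ± 0.15 without wt replicate 1. Ifih1 encodes MDA5, which signals through MAVS on binding long double-stranded RNA. It had 48.1, 93.6 and 83.2 CPM in wt and 77.0, 97.9 and 61.1 CPM in ko. Ifih1 varied most between libraries of a group, with a coefficient of variation of 31.8% in wt and 23.4% in ko, and wt replicate 1 was again lowest. Its log2 fold change was 0.07 ± 0.27 (SE), -0.17 ± 0.19 without that library and -0.13 without ko replicate 2.

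Zbp1, whose product recruits the kinase RIPK3 and can set off necroptosis, was lower in every library labelled ko. It had 98.6, 75.2 and 66.2 CPM in wt and 56.2, 47.7 and 54.4 CPM in ko. The groups were apart, and wt replicate 1 was by far the highest library. The log2 fold change of Zbp1 was -0.60 ± 0.17 (SE) and -0.43 ± 0.13 without wt replicate 1.

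**Figure D2:**
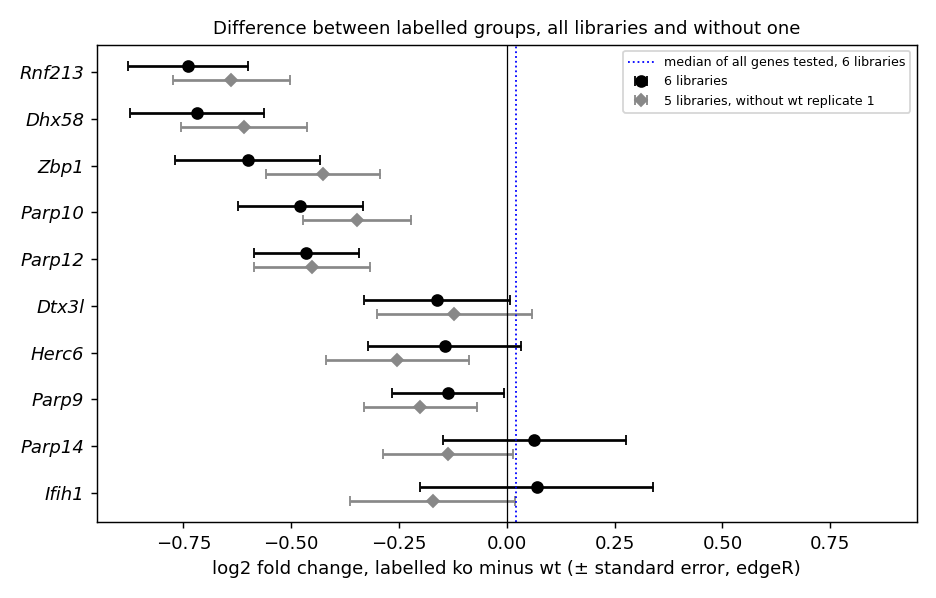
Log2 fold change (labelled ko minus wt, horizontal axis) of each gene with its standard error from edgeR, for all 6 libraries (circles) and for 5 without wt replicate 1 (diamonds). Parp14 and Ifih1 lie above 0 only with wt replicate 1 included. On scaling to the macrophage markers, which moves all genes up by a median of 0.51, Parp9, Parp10, Parp12, Dtx3l and Herc6 also lie above 0. Such scaling moves all genes nearly alike, so the median of the 10 genes necessarily stays below that of all genes, by 0.34.

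In wt replicate 1 the 10 genes departed from their group in both directions. It was the highest wt library for 5 of them and the lowest for 4, where over all genes tested it was highest for 40.5% and lowest for 40.1%. Relative to the mean of the other wt libraries, its log2 difference was 0.48 for Zbp1, 0.37 for Parp10, 0.31 for Dhx58 and 0.29 for Rnf213. It was -0.88 for Ifih1, -0.70 for Parp14, -0.34 for Herc6 and -0.19 for Parp9. Dtx3l (0.13) and Parp12 (0.05) were nearest to 0. The 5 genes for which it was the highest wt library were the same 5 whose groups did not overlap.

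Profiles over the 6 libraries were compared by the root mean square difference of centred log2 CPM, as a description of points that share their libraries and scaling. The closest pairs were Parp10 with Zbp1 (0.084) and Parp9 with Herc6 (0.084), followed by Dhx58 with Zbp1 (0.105). Parp14 was nearest to Ifih1 (0.137), and Rnf213 was nearest to Dhx58 (0.135). The least alike were the RNA helicases Ifih1 and Dhx58 (0.638). Parp9 and Dtx3l, whose products act as a complex and whose genes overlap, differed by 0.212, and Parp9 was the nearest of the group to Dtx3l.

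Levels of different genes were compared per length, in FPKM, which scales fragments to gene length and library total. Zbp1 was highest and Herc6 lowest in each of the 6 libraries. Zbp1 had a mean of 35.03 ± 6.60 FPKM (SD, n = 3) in wt and 25.7 ± 1.49 FPKM in ko, and Herc6 had 4.37 ± 1.02 and 4.36 ± 0.329 FPKM. In wt, Rnf213 was second in all 3 libraries, at a mean of 22.3 ± 3.06 FPKM, followed by Dhx58 at 19.2 ± 2.30 FPKM, and these means differed by less than the sum of their SDs. Parp10 (17.3 ± 2.41 FPKM), Parp12 (16.6 ± 0.433 FPKM), Parp14 (15.0 ± 4.22 FPKM), Ifih1 (12.7 ± 4.10 FPKM) and Parp9 (11.6 ± 1.51 FPKM) came next, each differing from its neighbour by less than the sum of their SDs, and Dtx3l (7.99 ± 1.25 FPKM) stood below them.

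In the libraries labelled ko, Parp14 (17.5 ± 3.87 FPKM) and Ifih1 (14.9 ± 4.73 FPKM) came next after Zbp1. Rnf213 (14.8 ± 0.950 FPKM), Parp10 (13.7 ± 0.771 FPKM), Parp12 (13.3 ± 0.489 FPKM), Dhx58 (12.9 ± 0.391 FPKM) and Parp9 (11.7 ± 1.03 FPKM) followed, again with steps smaller than the sum of the neighbours' SDs. Dtx3l was at 7.997 ± 2.03 FPKM. FPKM here is not TMM-scaled, and differences between groups can change sign with the scale. Parp9 and Dtx3l, whose mean CPM was lower in ko than in wt, had FPKM means that were almost level.

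The ratio of Dhx58 to Ifih1 in FPKM sets the LGP2 transcript against the MDA5 transcript within a library. It was 2.73, 1.21 and 1.19 in wt and 0.901, 0.630 and 1.27 in ko. Ko replicate 3 lay above the lower wt libraries, so the groups overlapped. Against Rigi, which encodes the third RNA helicase of this family, Dhx58 stood at 2.18, 1.92 and 1.48 in wt and at 1.40, 1.27 and 1.47 in ko. These groups did not overlap, but the lowest wt and the highest ko library were almost level. Ifih1 over Rigi (0.799, 1.59 and 1.24 in wt, 1.56, 2.01 and 1.16 in ko) overlapped. Parp9 over Dtx3l overlapped as well, at 1.25, 1.68 and 1.46 in wt and 1.67, 1.17 and 1.68 in ko.

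**Figure D3:**
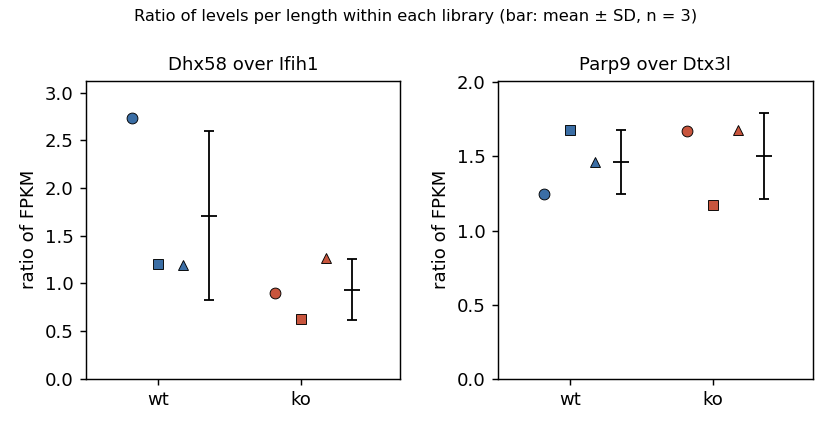
FPKM ratios between pairs of genes (vertical axes) in the 3 wt libraries and the 3 labelled ko. Dhx58 over Ifih1 is highest in wt replicate 1, at 2.73, and ranges from 0.630 to 1.27 in the libraries labelled ko.

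The summed macrophage markers were also lower in the libraries labelled ko. Each gene was therefore set against the geometric mean of the 8 markers, a choice made after the data were seen. That mean was 577 ± 51.8 CPM (SD, n = 3) in wt and 419 ± 100.1 CPM in ko. Rnf213 amounted to 73.5%, 64.7% and 75.0% of it in wt and to 57.1%, 74.5% and 50.1% in ko. Ko replicate 2 lay within the wt range, where in CPM it had been well below. Dhx58 was at 9.09%, 9.05% and 7.97% in wt and 7.47%, 8.36% and 6.51% in ko. Zbp1 was at 15.5%, 13.7% and 12.1% in wt and 13.7%, 14.7% and 10.4% in ko. On this scale the groups overlapped for all 10 genes. The share of all genes that overlapped was not computed, so nothing is read from this count. The fitted log2 fold changes were -0.23 for Rnf213, -0.22 for Dhx58 and -0.09 for Zbp1, while Parp10 (0.03) and Parp12 (0.02) were near 0. Ifih1 (0.61), Parp14 (0.58), Dtx3l (0.39), Parp9 (0.36) and Herc6 (0.34) were above 0. This scaling raised the median of all genes by 0.51 to 0.53, and the median of the 10 genes (0.19) lay 0.34 below that, against 0.33 below with TMM scaling. A change of scaling moves all genes nearly alike, so this gap could hardly change and is no measure of macrophage content. The part that macrophage content has in the differences was not tested.

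**Figure D4:**
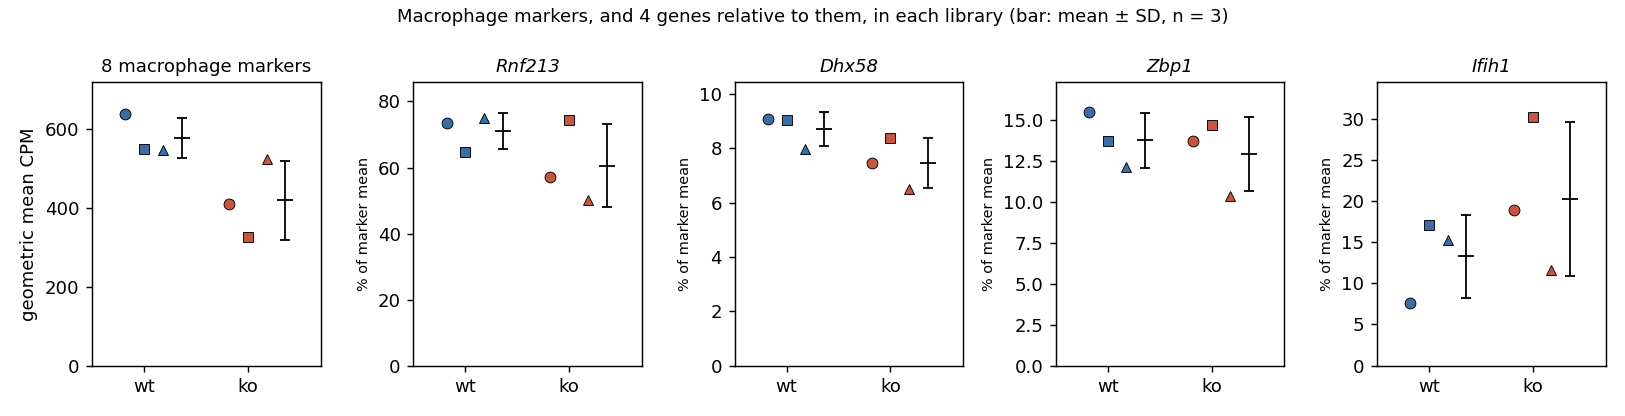
Level as a percentage of the geometric mean of 8 macrophage markers (vertical axes) for Rnf213, Dhx58, Zbp1 and Ifih1, beside that mean itself in CPM, in each library by labelled group, with mean ± SD. Rnf213 ranges from 64.7% to 75.0% in wt and from 50.1% to 74.5% in the libraries labelled ko, so the groups overlap on this scale.

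The other genes of these pathways were taken from 10 lists with 82 genes tested. Neither edgeR nor DESeq2 called any of them at an adjusted p under 0.05, and edgeR's adjusted p ran from 0.328 to 0.981. At an unadjusted p under 0.05, 17 lay lower and 2 higher, beside 15.2% of all genes in either direction. Of the 82, 23 were lower in every library labelled ko than in any wt library and 3 were higher, beside 12.6% and 13.3% of all genes. The summed macrophage and neutrophil markers had the same separation, by a narrow margin for macrophages (15416 against 15453 CPM). Their part in these values was not tested. The lists were chosen with earlier results of these data known, so nothing is read from counts of their genes. On scaling to the macrophage markers, the medians of all 10 lists lay above 0, from 0.16 to 2.02, while the median of all genes was 0.53.

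Among 12 other PARP family enzymes, none passed the test, and 6 had an estimate below 0 (47.9% of all genes). The median log2 fold change was -0.01. Parp4, the vault PARP, was 51.7 ± 4.83 CPM (SD, n = 3) in wt and 42.8 ± 4.06 CPM in ko. Tiparp, a target of the aryl hydrocarbon receptor, was 400 ± 116 CPM in wt and 538 ± 26.1 CPM in ko, and Parp16 was 4.04 ± 2.19 and 7.32 ± 1.81 CPM. Without wt replicate 1 the log2 fold change went from 0.43 to 0.22 for Tiparp and from 0.86 to 0.47 for Parp16. The 6 enzymes that remove ADP-ribose had a median of -0.02, and the smallest p-values were those of Adprh (-0.36 ± 0.19 SE), Oard1 (0.11 ± 0.16, or 0.18 without wt replicate 1) and Adprm (-0.11 ± 0.17). The 4 other Deltex ligases had a median of 0.27, with Dtx4 at 0.42 ± 0.30 (0.25 without wt replicate 1), Dtx3 at 0.10 ± 0.13 and Dtx1 at 0.49 ± 0.79 on the log2 scale, and the median was -0.00336 without ko replicate 2.

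The 8 genes of ISG15 conjugation and the other HERC ligases had a median log2 fold change of -0.30. Of them, 6 had an estimate below 0 (47.9% of all genes). Usp18, which removes ISG15, was 23.2 ± 4.36 CPM (SD, n = 3) in wt and 13.1 ± 1.26 CPM in ko. Ube2l6, the conjugating enzyme for ISG15, was 52.7 ± 6.87 and 36.4 ± 0.810 CPM, and Herc2 was 83.1 ± 9.20 and 68.6 ± 3.07 CPM. These 3 were lower in every library labelled ko than in any wt library (12.6% of all genes).

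The 14 partners of RNA sensing had a median log2 fold change of -0.31, and 12 had an estimate below 0 (47.9% of all genes). Irf7 and Irf3, the transcription factors that switch on type I interferon genes, were at -0.61 ± 0.16 (SE) and -0.56 ± 0.18, and at -0.46 and -0.37 without wt replicate 1. Adar, which edits double-stranded RNA, was at -0.51 ± 0.18, or -0.29 without wt replicate 1, and Rigi was at -0.30 ± 0.11. These 4 and Rnf135, a ligase that activates RIG-I, were lower in every library labelled ko than in any wt library (12.6% of all genes). Of 5 genes of DNA sensing, 4 had an estimate below 0 (47.9% of all genes). Sting1 was at -0.58 ± 0.18, Samhd1 at -0.53 ± 0.22 and Aim2 at 0.24 ± 0.20, and the list's median of -0.17 was -0.38 without wt replicate 1. Of 5 partners of ZBP1 in cell death, Ripk3 did not overlap (-0.31 ± 0.13), while Casp8 (-0.11 ± 0.13) and Ripk1 (-0.02 ± 0.15) were nearer to 0, and the median was -0.04. Without wt replicate 1, Ripk3 was at -0.20 and Ripk1 at 0.11.

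Of the interferon genes themselves, 2 could be tested. Ifnb1 had 9.22, 28.1 and 16.1 CPM in wt and 27.1, 32.6 and 28.8 CPM in ko, so the groups overlapped. Its log2 fold change was 0.73 ± 0.36 (SE), or 0.42 without wt replicate 1. Ifng had 39, 37 and 165 counts in wt and 265, 803 and 131 counts in ko, at 2.17 ± 0.78, and the T cell and NK cell markers were highest in the same library, ko replicate 2. The other 6 interferon genes in the table, Ifna1, Ifna2, Ifna4, Ifna5, Ifnk and Ifnz, had at most 5 counts in a library and were not tested. The 12 interferon receptors and signalling genes had a median of -0.23, with Ifngr2 at -0.48 ± 0.16 and Irf1 at 0.54 ± 0.14, and the Irf1 groups were separate in the opposite direction. The 14 other interferon-stimulated genes had a median of -0.34 (-0.45 without wt replicate 1). Of them, 13 had an estimate below 0 (47.9% of all genes). In 7 of the 14, every library labelled ko was lower than any wt library (12.6% of all genes). Among these were Oas2 (-0.79 ± 0.20), Oas3 (-0.94 ± 0.22) and Oasl2 (-0.65 ± 0.14), members of the oligoadenylate synthetase family. Without wt replicate 1, Oas2, Oas3 and Oasl2 were at -0.59, -0.71 and -0.64. The gene with an estimate above 0 was Oasl1 of the same family, at 0.33 ± 0.41 (0.04 without wt replicate 1), and its groups overlapped.

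**Figure D5:**
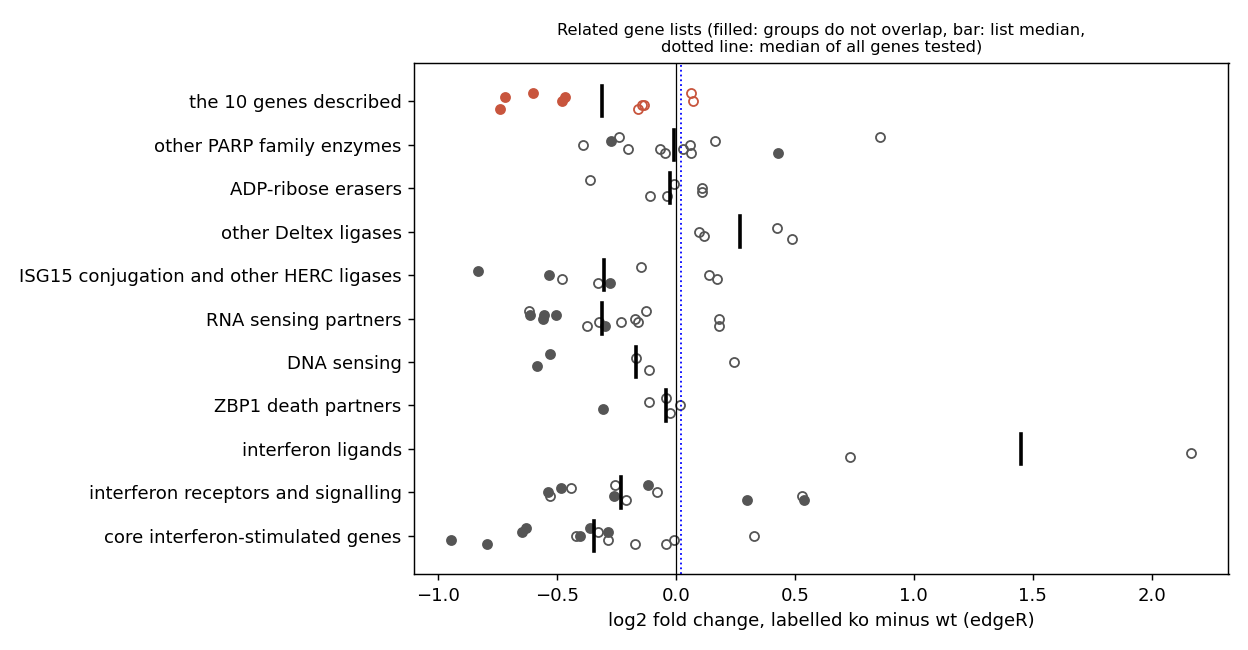
Log2 fold change (labelled ko minus wt, edgeR) of the 10 genes described and of the genes in 10 related lists, with filled points for genes whose groups do not overlap, bars for list medians and a dotted line for the median of all genes tested. Core interferon-stimulated genes have a median of -0.34 and other PARP family enzymes one of -0.01, and on scaling to the macrophage markers, where the median of all genes is 0.53, all list medians lie above 0.

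The genes outside the group with profiles most like the mean of the 10 were Derl2 (root mean square difference 0.030), Rnf126 (0.038), Dlg4 (0.046), Depdc5 (0.047), Chpt1 (0.052), Chd4 (0.053), Dexi (0.057), Arfgef2 (0.058), Cars (0.061) and Rigi (0.062). Those most like Rnf213 were B430306N03Rik (0.070), Dnmbp (0.075), Treml2 (0.076), Ms4a6b (0.086) and Ticam2 (0.086). These rest on 6 libraries, and on log2 FPKM 5 of the 10 and 4 of the 5 were again among the nearest.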

How the data were processed

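RNA-seq libraries from 3 wt and 3 ko samples were analysed. The authors deposited whole-number read counts per gene and FPKM values for the same 6 libraries. The labels name the genome build mm10, while the aligner, counter and annotation are not given in the sources used here. The deposited FPKM equal counts divided by gene length and library total. The labels describe the replicates as separate biosamples and do not say that each is 1 animal. The study gives fewer mice than these libraries for a heatmap of the same experiment, so libraries of a group may share an animal, and SDs, SEs and p-values measure only the spread between these samples.

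Counts were analysed in R 4.3.3 with edgeR 4.0.16 (filterByExpr, TMM factors, quasi-likelihood test) over all genes, with Benjamini-Hochberg adjustment and a threshold of 0.05. Log2 fold changes and standard errors come from that fit. DESeq2 1.42.0 and limma 3.58.1 (on log2 FPKM plus 1 or 0.1) were alternatives. The scripts were tested on simulated data with 200 genes changed 4-fold. There edgeR recovered 79.4% of the 189 changed genes that passed its filter and called 11 unchanged genes. DESeq2 recovered 81.5% and called 50 unchanged genes, and limma recovered 66.5% and called 12. Among the 10 genes the largest difference was -0.74 on the log2 scale, so recovery of differences that small was not tested. The 10 genes and the lists were chosen with earlier results of these data known. All 10 genes are named, with Npm1, the 3 genes of each list with the smallest p, and the nearest profiles. Rigi and Rnf135, named because their groups did not overlap, and Oasl1, named for its direction, were chosen after their values were seen. Genes of the lists that are not in the table (Mx1, Mx2 and others) were not analysed here. One gene that the naming rule picked is not reported here. Depth was alike in all libraries, and 3 counts correspond to 0.0716 to 0.0846 CPM.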

Additional observations from a re-analysis of the deposited data

How the results depend on the processing

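No gene of the whole table passed an adjusted p under 0.05 in edgeR. This held for RLE and upper quartile scaling, for no filter and a stricter filter on low counts, and for limma. It also held with each library left out. DESeq2 called 36. In the simulated data it called the most unchanged genes. Those data were drawn from edgeR's dispersions on filtered genes with no outlying library, so they cannot show whether the 36 calls are false. At an unadjusted p under 0.05 edgeR singled out 2112 genes, which became 775 without ko replicate 1, 669 without ko replicate 2 and 4104 on scaling to the macrophage markers, an alternative added after the data were seen. The cause was not tested. The median log2 fold change of the 10 genes was -0.31 and moved to -0.16 and -0.17 with limma on log2 FPKM plus 1 and plus 0.1 and to 0.19 on scaling to the macrophage markers, and it ranged from -0.38 to -0.30 with 1 library left out. The limma fit with 0.1 raised the median of all genes by 0.14. The count of genes lower in every library labelled ko was 5 (12.6% of all genes). It was 5 to 6 with 1 library left out (14.9% of all genes without wt replicate 1). On scaling to the macrophage markers it was 0. No share of all genes was computed for that scaling. It raised the median of all genes by 0.51, so nothing is read from the 0. Parp9 was added without wt replicate 1 or ko replicate 1, and Dtx3l without wt replicate 2 or ko replicate 2. Ifih1 and Parp14 changed sign without wt replicate 1 (-0.17 and -0.14) and without ko replicate 2 (-0.13 and -0.04), Herc6 without wt replicate 3 (0.02) and in both limma fits (0.01 and 0.02), and Parp9 in both limma fits (0.01 and 0.02). Of the 10 genes, 8 lay below 0 (47.9% of all genes). The count was 6 in both limma fits, 7 without wt replicate 3 and 3 on scaling to the macrophage markers. It was 10 without wt replicate 1 and without ko replicate 2. Shares of all genes were not computed for these settings. In the limma fits the median of all genes was 0.09 and 0.16, and 8 of the 10 lay below it. Npm1 stayed above 0, between 0.16 and 0.70 with 1 library left out, and was never called. No gene of the lists was called in edgeR, limma or DESeq2 under any setting. Of the 10 nearest profiles, 5 were shared on log2 FPKM. In a shorter promoter window the motif shares were 2.06% and 5.42%.

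In a fit blocked on replicate numbers, 0 genes were called and the median of the 10 genes was -0.32. The labels do not say whether same-numbered libraries were paired. Deviations of same-numbered libraries correlated at -0.241, 0.060 and -0.337, and so few values cannot decide it. The block changed no call.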
